A study of Mus musculus with 11 samples.

Results

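The genes of the interleukin-1 (IL-1) family described here were the ligands Il1a, Il1b, Il18 and Il33, the receptor chain Il1rap, and the antagonists Il1rn, Il1r2 and Il18bp, measured in fibroblasts sorted from mouse mammary tissue. The set was chosen by name as 10 ligand, receptor and antagonist symbols. A member was kept where a probe set of the array carried its symbol and no other, and 8 of the 10 symbols met this among 19938 genes in all. Il1r1 and Il1rl1 were not analysed here. Each of the 8 members had 1 probe set.

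The study followed cancer-associated fibroblasts (CAFs) through mammary carcinogenesis in MMTV-PyMT mice, on 11 expression arrays of the Affymetrix Mouse Gene 1.0 ST type. Fibroblasts were sorted fresh as CD140a+ F4/80- cells, with EpCAM- added in the sample labels, where CD140a is the receptor PDGFRα, F4/80 a macrophage protein and EpCAM an epithelial protein. The 4 groups were normal mammary gland of FVB/n females aged 8 weeks (2 arrays, D2 and D5), hyperplasia of MMTV-PyMT females aged 4 weeks (3 arrays, D6, D7 and D12), carcinoma at 9 weeks (3 arrays, D3, D4 and D10) and advanced carcinoma at 12 weeks (3 arrays, D8, D9 and D11), the last named late carcinoma in the labels. Carcinoma and advanced carcinoma fibroblasts together are the 6 CAF arrays, set against the 5 normal and hyperplasia arrays. The MMTV promoter drives the PyMT oncogene in mammary epithelium, so the transgene itself is not aimed at the fibroblasts, and each array held RNA pooled from several mice of a stage. All mice were of the FVB/n background, and the normal mice did not carry the transgene. Age differed with stage and the effects of age and stage cannot be told apart. The same holds for genotype and stage in comparisons with normal mice. Values are log2 expression as deposited. The precision of the differences below is limited by how few arrays each stage has.

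IL-1α and IL-1β bind the same receptor on fibroblasts, epithelium and leukocytes, which then pairs with the accessory chain IL1RAP and signals through MyD88 and IRAK kinases to NF-κB. IL-1β and IL-18 are made as precursors that caspase-1 cleaves in the inflammasome, whereas IL-1α and IL-33 are held in the cell and act as alarmins once released. The pathway is braked outside the cell: IL1RN occupies the receptor without signalling, IL1R2 is a decoy that captures ligand, and IL18BP neutralises IL-18. Myeloid cells are a well known source of IL-1β, and stromal cells a well known source of IL-33.

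The windows at the transcription start sites of Il1a, Il1b, Il18 and Il1r2 are shown because these are the ligand pair with higher values in CAFs and the ligand and decoy with lower values. Sequences are those of RefSeq on GRCm38.p6, 300 bases each, read 5′ to 3′ on the gene's strand: Il1a at chr2:129309923-129310222 (minus strand), Il1b at chr2:129371090-129371389 (minus strand), Il18 at chr9:50554450-50554749 (plus strand) and Il1r2 at chr1:40085843-40086142 (plus strand). Capitals mark matches on either strand to 5 motifs, of which those found here were TATAAA, the AP-1 motif TGANTCA and the E-box CACGTG.
Il1a: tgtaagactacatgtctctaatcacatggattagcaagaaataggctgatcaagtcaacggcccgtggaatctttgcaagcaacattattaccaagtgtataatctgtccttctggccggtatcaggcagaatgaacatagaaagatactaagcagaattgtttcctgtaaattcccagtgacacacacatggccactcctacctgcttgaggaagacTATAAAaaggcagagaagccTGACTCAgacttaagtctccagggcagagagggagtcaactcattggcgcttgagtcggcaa
Il1b: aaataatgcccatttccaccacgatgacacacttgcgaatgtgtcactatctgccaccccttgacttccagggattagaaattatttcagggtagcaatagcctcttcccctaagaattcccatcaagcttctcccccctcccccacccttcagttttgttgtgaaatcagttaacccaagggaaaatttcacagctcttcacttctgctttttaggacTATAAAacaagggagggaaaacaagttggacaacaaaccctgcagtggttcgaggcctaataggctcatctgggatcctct
Il18: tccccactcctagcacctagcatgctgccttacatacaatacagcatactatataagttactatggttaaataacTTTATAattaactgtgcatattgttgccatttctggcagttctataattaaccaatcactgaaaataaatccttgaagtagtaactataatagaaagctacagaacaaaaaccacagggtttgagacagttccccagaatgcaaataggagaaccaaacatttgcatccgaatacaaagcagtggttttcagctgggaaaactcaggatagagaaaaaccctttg
Il1r2: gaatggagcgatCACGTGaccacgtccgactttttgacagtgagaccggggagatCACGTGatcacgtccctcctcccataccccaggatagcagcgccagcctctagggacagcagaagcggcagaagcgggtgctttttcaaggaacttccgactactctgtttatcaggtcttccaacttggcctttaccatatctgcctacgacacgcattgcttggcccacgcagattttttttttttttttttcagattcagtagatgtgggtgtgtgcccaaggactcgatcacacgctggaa
All 8 members matched a RefSeq start site. Il1a held TATAAA at position 219 and the AP-1 motif at position 239, counted from the first base shown, and Il1b held TATAAA at position 220. Il18 held TATAAA on the reverse strand at position 76, and Il1r2 held CACGTG at positions 13 and 56. Of 32851 mouse promoter windows of the same length, 13.6% held TATAAA, 7.81% the AP-1 motif and 7.15% CACGTG. The NF-κB consensus matched 4.51% of all windows and no window of the 8 members, and the C/EBP motif TTGCNNAA (10.8% of all windows) occurred at Il18bp and at 1 of the 2 start sites of Il33. At Il1rn, which has 3 start sites, 1 window held the AP-1 motif. No motif overlapped another in the windows shown. A match describes letters, not a bound site, and no match says only that these letters are not in the window.

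The arrays were first set against the markers of the sort. Pdgfra, which encodes CD140a, lay between 9.21 and 11.01 on CAF arrays, against 10.80 and 11.35 as the lowest and highest on normal and hyperplasia arrays, with carcinoma D4 lowest. The mean of 12 fibroblast markers was 9.38 on carcinoma D4 and 10.78 to 11.05 on the other CAF arrays, against 10.88 to 11.27 on normal and hyperplasia arrays. Adgre1, which encodes F4/80, averaged 6.46 ± 1.11 in CAFs and 4.14 ± 0.56 in normal and hyperplasia fibroblasts (mean ± SD over 6 and 5 arrays; adjusted p = 0.00719), and Epcam averaged 9.33 ± 0.46 and 7.17 ± 0.78 (adjusted p = 0.00149). A pair of arrays, advanced carcinoma D11 and normal D2, had tied values: in every probe set their sum equalled 2 times the mean of the other 9 arrays, within 0.000144, so the 11 arrays hold 10 independent columns. No source used here describes a step that would make such a tie. The calls lost without these 2 arrays are given beside the members and, in the CAF comparison only, beside the lists and the pathway genes named. Without them 18.7% of all genes were called in CAFs against normal and hyperplasia, beside 24.9% with them.

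Il1a and Il1b were the ligands with the higher values in tumours, and Il18 the ligand with the lower values. Il1a, the membrane-bound and intracellular form of IL-1, was 4.03 and 3.74 on the normal arrays, 3.72, 3.70 and 3.81 on hyperplasia arrays, 4.10, 5.26 and 3.98 on carcinoma arrays and 5.93, 5.97 and 4.90 on advanced carcinoma arrays. All 3 advanced carcinoma arrays and carcinoma D4 stood above the rest, while carcinoma D10 lay below normal D2, so the CAF arrays overlapped the others. Il1b, the secreted form cleaved by caspase-1, was 5.57 and 4.76 on normal arrays, 4.20, 4.40 and 4.76 on hyperplasia arrays, 5.60, 6.65 and 5.19 on carcinoma arrays and 7.67, 7.96 and 5.80 on advanced carcinoma arrays. The order of the arrays was the order seen for Il1a at the top, with advanced carcinoma D9 and D8 first and carcinoma D4 next, and the lowest CAF array (carcinoma D10) was again below normal D2. An antisense transcript that overlaps Il1b, Il1bos, lay between 4.26 and 4.48 on all arrays.

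Il18, which drives interferon-γ production by lymphocytes, was 7.47 and 7.65 on normal arrays, 7.64, 8.00 and 7.17 on hyperplasia arrays, 6.49, 6.06 and 7.14 on carcinoma arrays and 5.82, 6.10 and 6.32 on advanced carcinoma arrays. Every CAF array was below every normal and hyperplasia array, by a narrow gap between carcinoma D10 and hyperplasia D12. Il33, the alarmin of barrier and stromal cells, was 9.65 and 9.77 on normal arrays, 9.71, 9.84 and 9.03 on hyperplasia arrays, 10.09, 8.71 and 10.39 on carcinoma arrays and 10.42, 10.66 and 10.04 on advanced carcinoma arrays. For Il33, 5 of the 6 CAF arrays lay above all normal and hyperplasia arrays, and carcinoma D4 lay below them all.

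The receptor chain Il1rap, shared by the receptors of IL-1 and IL-33, was 7.24 and 6.67 on normal arrays, 7.31, 7.69 and 7.08 on hyperplasia arrays, 7.13, 7.60 and 7.26 on carcinoma arrays and 7.44, 7.55 and 7.37 on advanced carcinoma arrays. Its highest value was on hyperplasia D7 and its lowest on normal D5, and the CAF arrays lay within the range of the others.

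The antagonists did not move together. Il1r2, the decoy receptor, was 9.69 and 9.93 on normal arrays, 10.26, 10.32 and 9.60 on hyperplasia arrays, 8.82, 6.86 and 9.21 on carcinoma arrays and 7.10, 7.12 and 7.91 on advanced carcinoma arrays. All 6 CAF arrays were below all 5 others, and carcinoma D4 was the lowest of all. Il1rn, the receptor antagonist, was 5.33 and 4.99 on normal arrays, 4.94, 5.02 and 4.78 on hyperplasia arrays, 5.29, 5.85 and 5.46 on carcinoma arrays and 5.91, 6.06 and 5.40 on advanced carcinoma arrays. Carcinoma D3 was below normal D2, and the other 5 CAF arrays were above all normal and hyperplasia arrays. Il18bp, the soluble inhibitor of IL-18, was 6.08 and 6.51 on normal arrays, 5.93, 6.28 and 5.94 on hyperplasia arrays, 6.0, 6.29 and 6.25 on carcinoma arrays and 6.32, 6.23 and 6.31 on advanced carcinoma arrays. Its CAF arrays fell within the range of the other arrays.

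**Figure D1:**
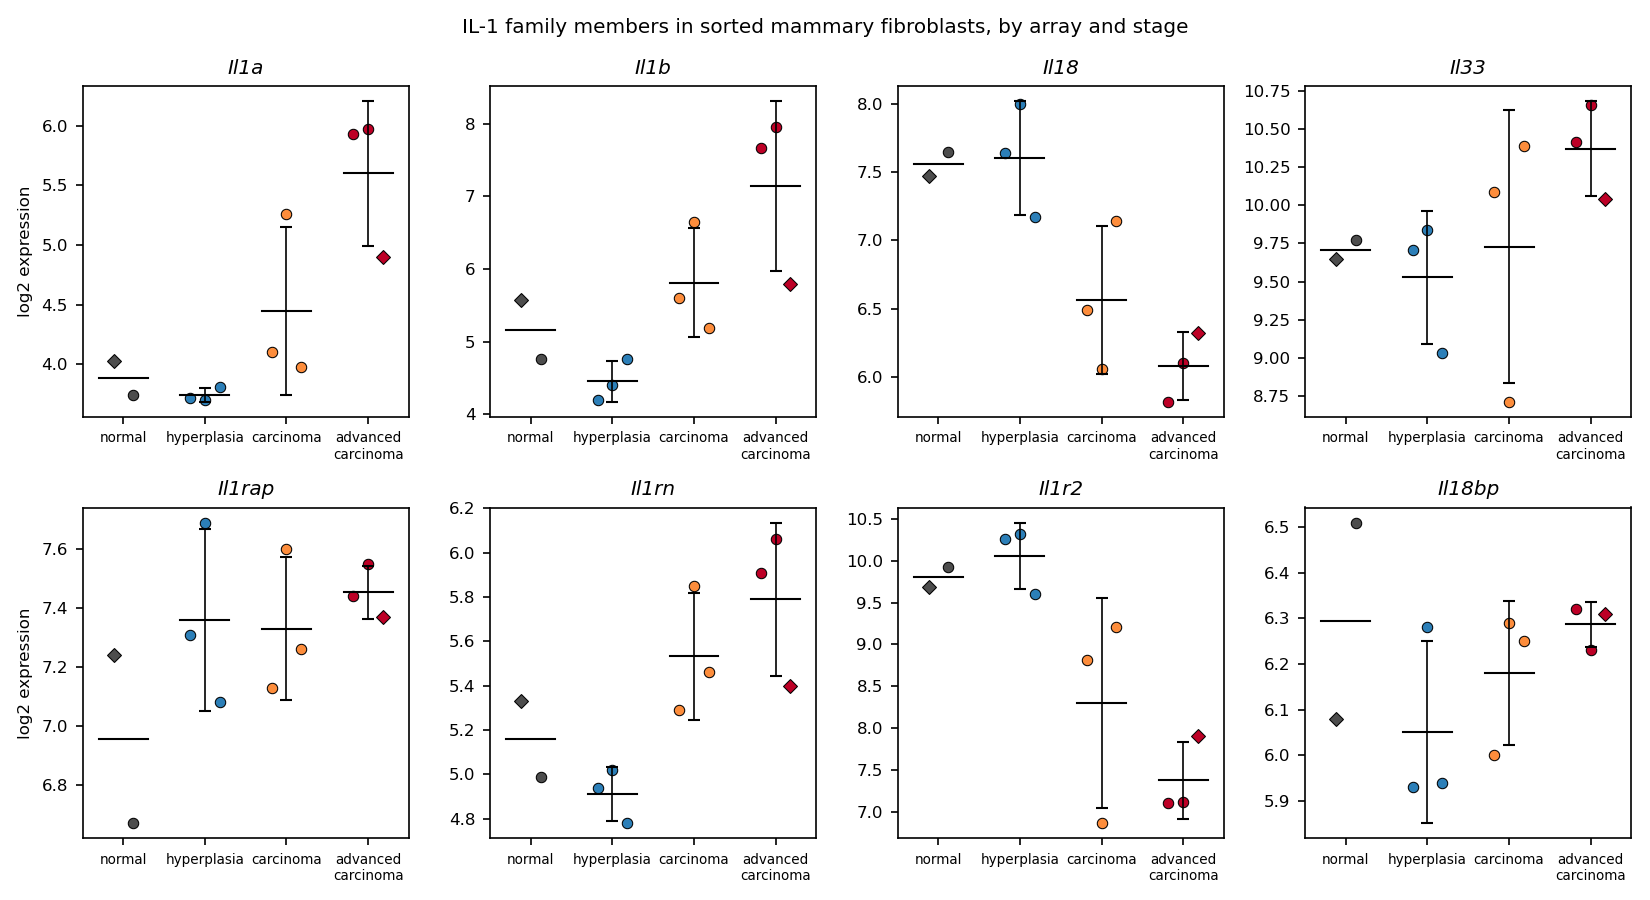
Log2 expression of the 8 members on each of 11 arrays (points), by stage; each panel has its own scale, horizontal lines are stage means, bars are SD where a stage has 3 arrays, and the tied arrays, D2 and D11, are diamonds. Il18 and Il1r2 are lower on all 6 CAF arrays than on all 5 others, whereas Il1a and Il1b are highest on advanced carcinoma D8 and D9.

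Whether IL-1 family expression differs between CAFs and fibroblasts of normal or premalignant tissue was asked by setting the 6 CAF arrays against the 5 normal and hyperplasia arrays. In this comparison 5 of the 8 members passed an adjusted p under 0.05, where 24.9% of all genes tested did. Il1a, Il1b and Il1rn were higher in CAFs (12% of all genes were called higher), and Il18 and Il1r2 were lower (12.8% of all genes). The median difference of all genes was -0.04.

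Il1a averaged 5.02 ± 0.86 in CAFs and 3.80 ± 0.14 in normal and hyperplasia fibroblasts (mean ± SD over 6 and 5 arrays), a log2 difference of 1.22 (SE 0.36; adjusted p = 0.0282), or 2.34-fold. Il1b differed by 1.74 (SE 0.50; adjusted p = 0.0278), a 3.33-fold higher signal in CAFs, with 5 of 6 CAF arrays above all others. Il1rn differed by 0.65 (SE 0.15; adjusted p = 0.011), or 1.57-fold. These folds start from low values. On normal and hyperplasia arrays Il1a reached at most 4.03, below the lower decile of all gene means (4.12). Il1b reached at most 5.57 and Il1rn 5.33 there, below the median gene (5.64).

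Il18 was lower by 2.4-fold in CAFs, with a log2 difference of -1.26 (SE 0.22; adjusted p = 0.00249). Il1r2 had the largest difference of the 8 members, -2.12 (SE 0.42; adjusted p = 0.00493), or 4.36-fold lower. The groups did not overlap for these 2 members, which was also so for 14.9% of all genes. In a sorted bulk sample, fewer cells of a type that expresses a gene and less RNA per cell cannot be told apart, and this holds for each of these differences.

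The remaining 3 members did not pass. The difference of Il33 was 0.45 (95% CI -0.22 to 1.13; adjusted p = 0.304), and without carcinoma D4, the array with the lowest fibroblast markers, it was 0.72 (adjusted p = 0.0116). Of 21 alternative settings this was the only 1 in which Il33 passed, and without hyperplasia D12 its adjusted p was 0.511. Il1rap differed by 0.19 (95% CI -0.15 to 0.54; adjusted p = 0.387). Il18bp differed by 0.09 (95% CI -0.15 to 0.33; adjusted p = 0.573), so that of the 3 antagonists 1 was higher, 1 lower and 1 within these bounds.

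The calls of Il1a and Il1b were close to the threshold. Il1a had an adjusted p of 0.0544 without normal D5, 0.0596 without hyperplasia D6, 0.0617 without hyperplasia D7, 0.0517 without hyperplasia D12, 0.0555 without advanced carcinoma D8, 0.0537 without advanced carcinoma D9 and 0.0629 without both tied arrays. Il1b had an adjusted p of 0.0511 without normal D5, 0.0671 without hyperplasia D6, 0.0653 without hyperplasia D7, 0.051 without hyperplasia D12 and 0.0569 without advanced carcinoma D8. Il18, Il1rn and Il1r2 passed with every single array left out. The study showed Il1a, Il1b, Il18 and Il1r2 from these same samples, so their calls are not independent evidence of direction.

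**Figure D2:**
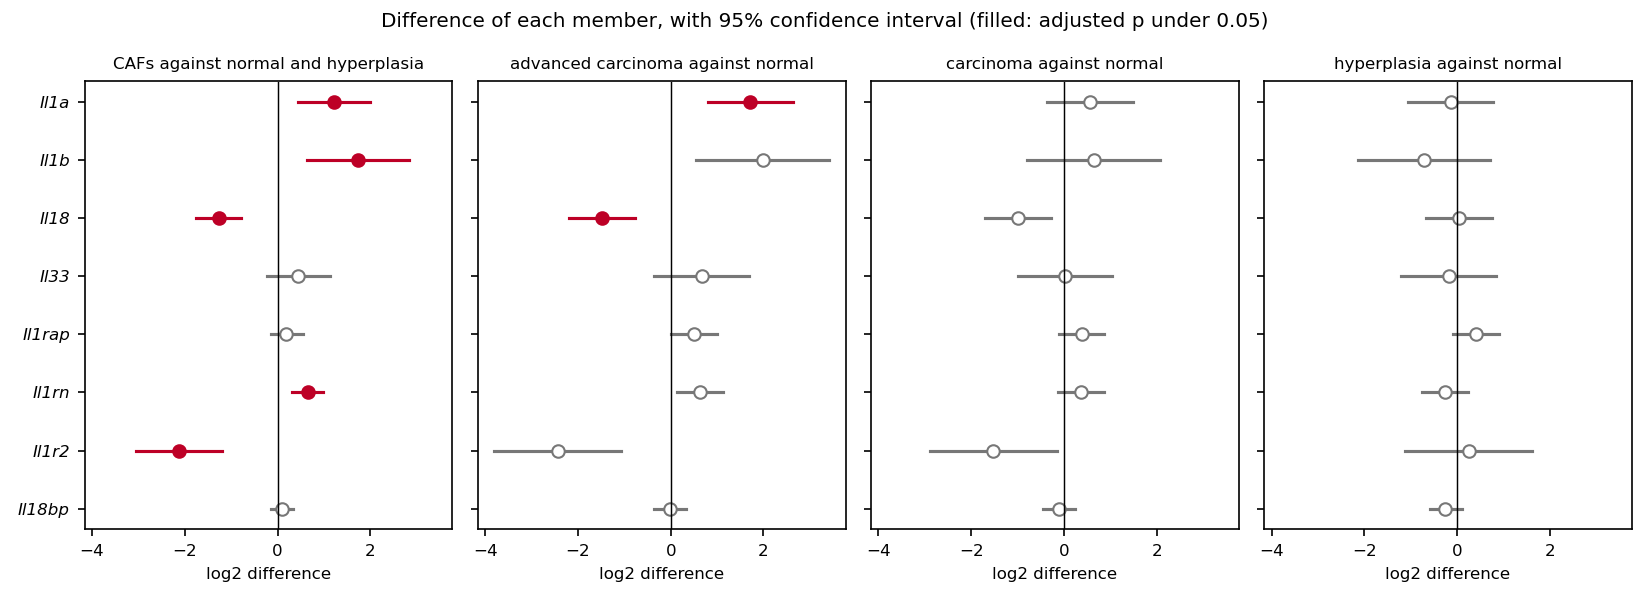
Log2 difference of each member (points) with its 95% confidence interval (lines) in 4 comparisons; filled red points have an adjusted p under 0.05. In CAFs 5 members pass, in advanced carcinoma Il1a and Il18 pass, and in carcinoma and in hyperplasia none passes.

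Macrophage markers were read beside the members, since Il1a, Il1b and Il1rn were highest and Il18 and Il1r2 lowest on the same arrays. Of 13 macrophage markers, 10 were higher in CAFs and none was lower, beside 12% of all genes called higher, with a median difference of 2.0. Examples were Lyz2, a lysozyme (2.83), C1qb, a complement chain (2.52), Adgre1 (2.32) and Csf1r, the receptor of the macrophage growth factor (2.19). Marco (difference -0.02) and Mertk (-0.03) did not pass, nor did Cd163 (0.56, adjusted p = 0.0722).

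The mean of the 13 markers was 5.87 to 7.58 on CAF arrays and 4.72 to 5.82 on normal and hyperplasia arrays. It was highest on advanced carcinoma D9 (7.58), advanced carcinoma D8 (7.44) and carcinoma D4 (7.24), and the next arrays were advanced carcinoma D11 (6.14), carcinoma D3 (6.02), carcinoma D10 (5.87) and normal D2 (5.82). The 3 arrays at the top were also the 3 with the highest Il1a, Il1b and Il1rn and the lowest Il1r2, and they were the 3 with the lowest Il18. This rank was not particular to macrophage markers. Luminal epithelial means were also highest on carcinoma D4 (9.28), advanced carcinoma D8 (9.05) and advanced carcinoma D9 (8.97), with carcinoma D3 next (8.73). Neutrophil means ranked these 4 arrays in the same order (5.14, 4.97, 4.93 and 4.87). Among genes at or above the median level, the pattern nearest to that of Il1b over the 11 arrays was that of C1qa, a macrophage complement gene (Pearson r = 0.985).

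With carcinoma D4 and advanced carcinoma D8 and D9 left out together, a choice made after seeing the data, Il18 (-0.93, adjusted p = 0.0331) and Il1r2 (-1.31, adjusted p = 0.0266) still passed. Il1a (0.53, adjusted p = 0.131), Il1b (0.79, adjusted p = 0.127) and Il1rn (0.37, adjusted p = 0.0808) did not pass. In this setting 9.57% of all genes were called, and 5.79% were called higher. Of the macrophage markers 6 of 13 were still higher in CAFs, and of luminal epithelial markers 11 of 14. The 3 arrays also hold the highest Il1a and Il1b and the lowest Il18, and 3 CAF arrays then remain. The part of the macrophage, luminal epithelial or neutrophil signal in the result was not tested.

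**Figure D3:**
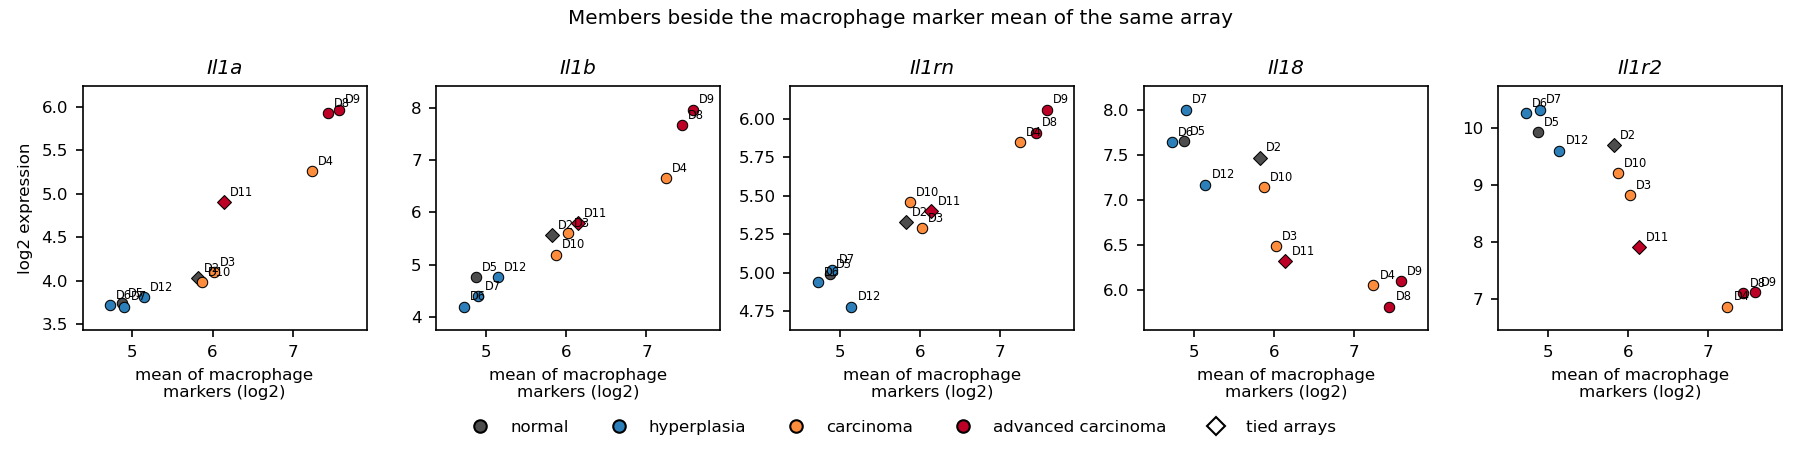
Log2 expression of Il1a, Il1b, Il1rn, Il18 and Il1r2 (vertical axes) against the mean log2 expression of 13 macrophage markers on the same array (horizontal axes), 1 point per array, coloured by stage; diamonds mark the tied arrays. Carcinoma D4 and advanced carcinoma D8 and D9, with macrophage means of 7.24, 7.44 and 7.58, lie to the right of the other 8 arrays, with the highest Il1a, Il1b and Il1rn and the lowest Il18 and Il1r2.

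Markers of other cells were read in the same comparison, in which 12% of all genes were called higher and 12.8% lower. Of 14 luminal epithelial markers 12 were higher and 1 lower in CAFs, with array means of 8.34 to 9.28 in CAFs and 6.21 to 7.54 in normal and hyperplasia fibroblasts. Basal epithelial markers were higher for 3 of 7 genes. Lymphocyte markers were lower for 4 and higher for 1 of 11 T, NK and innate lymphoid genes, and lower for 3 of 5 B cell genes. Dendritic cell markers (1 higher and 3 lower of 8) and adipocyte markers (4 lower of 8) were called in part. Mast cell and basophil markers (1 higher and 2 lower of 11), neutrophil markers (1 higher and 1 lower of 11) and endothelial markers (2 lower of 9) were called at a share near the 24.9% of all genes. None of 7 pan-leukocyte or 12 fibroblast markers passed in limma. Without both tied arrays no T, NK and innate lymphoid, B cell, mast cell or neutrophil marker was lower, and 1 dendritic cell, 1 endothelial and 2 adipocyte markers were lower. In that setting 18.7% of all genes were called in either direction. Without carcinoma D4, 7 of the 12 fibroblast markers were lower, where 23.6% of all genes were called in either direction. The part of these cells in the members' differences was not tested.

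Stages were then set against normal mammary fibroblasts 1 at a time. In advanced carcinoma 2 of the 8 members passed, where 5.61% of all genes did. Il1a averaged 5.60 ± 0.60 in advanced carcinoma and 3.88 ± 0.21 in normal fibroblasts (SD, n = 3 and 2), a difference of 1.72 (SE 0.41; adjusted p = 0.0456). Il18 averaged 6.08 ± 0.25 and 7.56 ± 0.13, a difference of -1.48 (SE 0.32; adjusted p = 0.0342).

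Il1r2 had a difference of -2.43 (95% CI -3.80 to -1.07; adjusted p = 0.0508), and Il1b one of 1.98 (95% CI 0.54 to 3.41; adjusted p = 0.106), with all 3 advanced carcinoma arrays above both normal arrays. Il1rn (0.63, adjusted p = 0.13), Il33 (0.67, adjusted p = 0.426), Il1rap (0.50, adjusted p = 0.216) and Il18bp (-0.01, adjusted p = 0.988) did not pass. The 2 groups were without overlap for 7 of 8 members, where this was so for 48% of all genes. Neither call held when a term for the tied arrays was fitted (Il1a adjusted p = 0.0791, Il18 adjusted p = 0.0686), nor without both of them (0.0932 and 0.13).

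Leaving out single arrays moved these 2 calls and others. Il1a had an adjusted p of 0.132 without normal D2, 0.249 without normal D5, 0.0681 without hyperplasia D6, 0.0706 without hyperplasia D7, 0.0605 without hyperplasia D12, 0.0601 without carcinoma D3, 0.147 without advanced carcinoma D8 and 0.15 without advanced carcinoma D9. Il18 had an adjusted p of 0.115 without normal D2, 0.205 without normal D5, 0.0541 without hyperplasia D6, 0.0531 without carcinoma D3, 0.116 without advanced carcinoma D8, 0.113 without advanced carcinoma D9 and 0.0538 without advanced carcinoma D11. Il1r2 passed without carcinoma D4 (adjusted p = 0.00124) and without carcinoma D10 (0.0348), and Il1b without carcinoma D4 (0.048) and without advanced carcinoma D11 (0.0332).

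In carcinoma against normal, 0 of the 8 members passed in limma (0.938% of all genes did), and 2 had an unadjusted p under 0.05, where 18% of all genes had one. These were Il18, with a difference of -1.0 (95% CI -1.71 to -0.28; adjusted p = 0.161), and Il1r2, with -1.52 (95% CI -2.88 to -0.15; adjusted p = 0.238). For both, all 3 carcinoma arrays lay below both normal arrays, and 33.7% of all genes had groups without overlap. Il1a differed by 0.56 (95% CI -0.36 to 1.48) and Il1b by 0.65 (95% CI -0.79 to 2.08). Without carcinoma D10, Il18 passed (adjusted p = 0.049).

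In hyperplasia against normal, 0 of the 8 members passed, where 0% of all genes did in limma, and no member had an unadjusted p under 0.05 (4.22% of all genes had). Il1b differed by -0.71 (95% CI -2.14 to 0.72), Il1a by -0.14 (95% CI -1.06 to 0.78), Il18 by 0.04 (95% CI -0.68 to 0.76) and Il1r2 by 0.25 (95% CI -1.12 to 1.61). Il1rn differed by -0.25 (95% CI -0.75 to 0.24). The stage comparisons with normal share the 2 normal arrays.

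The step between the tumour stages was tested as advanced carcinoma against carcinoma, in which 0 of 8 members and 0% of all genes passed in limma. At an unadjusted p under 0.05 there were 2 members, Il1a (1.15, 95% CI 0.33 to 1.97; adjusted p = 0.884) and Il1b (1.33, 95% CI 0.05 to 2.61; adjusted p = 0.884), where 5.64% of all genes reached this. Carcinoma D4 was above advanced carcinoma D11 for both ligands, so the stages overlapped.

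The study's own threshold was an unadjusted p under 0.05 with a fold over 1.5, computed here from the limma fits. At that threshold 5 members were called in CAFs (12.2% of all genes) and 5 in advanced carcinoma against normal (Il1a, Il1b and Il1rn higher, Il18 and Il1r2 lower; 10.6% of all genes). In carcinoma against normal Il18 and Il1r2 met it (6.98% of all genes), in hyperplasia against normal no member did (1% of all genes), and in advanced carcinoma against carcinoma Il1a and Il1b did (0.727% of all genes).

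Over the 11 arrays the members formed groups in their pattern, given here as a description since the arrays share stages and cell content. Il1a and Il1b had a Pearson r of 0.97, Il1b and Il1rn 0.94, and Il18 and Il1r2 0.97. Il1r2 ran opposite to Il1a (r = -0.95) and Il1b (r = -0.92). Il33 had an r between -0.20 and 0.38 with every other member, and Il18bp between -0.32 and 0.37.

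The genes with the nearest pattern to each member were taken from 9674 genes at or above the median level. For Il1a they were Hps4 (r = 0.985) and Pilra, a myeloid inhibitory receptor (0.983). For Il1b they were C1qa and Lilrb4a, another leukocyte inhibitory receptor (0.978), and for Il1rn Zdhhc21 (0.980) and Lilr4b (0.978). For Il1r2 they were Prrg1 and Opcml (0.996 each), for Il18 Tubb4a and Adamtsl4 (0.989 each), and for Il33 Ccn3 (0.965) and Ccn5 (0.916), a pair of matricellular proteins. Il1rap was nearest to Eif2ak2 (0.884) and Hmgn2 (0.881), and Il18bp to Ttll4 (0.936) and Ssb (0.903).

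The rest of the pathway was read from 4 lists in the comparison of CAFs with normal and hyperplasia fibroblasts. Of 11 measured IL-1 family genes outside the set, 1 was higher and 2 were lower, with a median difference of -0.11 beside -0.04 for all genes. Sigirr, a receptor that dampens IL-1 and Toll-like receptor signalling, was higher by 0.64 (adjusted p = 0.0415). Il1rl2, the receptor of the IL-36 ligands, averaged 9.43 ± 0.70 in CAFs and 10.48 ± 0.23 in normal and hyperplasia fibroblasts (difference -1.04, adjusted p = 0.0259), and Il1f8, an older symbol of an IL-36 ligand, differed by -0.34 (adjusted p = 0.0179). The 3 of 11 called lie beside 24.9% of all genes. Il1rl2 did not pass without both tied arrays (adjusted p = 0.0685), Sigirr did not without carcinoma D4 (0.0617), and none of the 3 did without carcinoma D4 and advanced carcinoma D8 and D9.

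Of 18 signal adaptors and kinases, 4 were higher and 2 lower, or 6 called beside 24.9% of all genes, with a median of 0.01. Irak2, a kinase of the receptor complex, averaged 6.91 ± 0.31 in CAFs and 5.82 ± 0.35 in normal and hyperplasia fibroblasts (difference 1.09, adjusted p = 0.00197). Peli2, a ubiquitin ligase that acts on IRAK proteins, was lower by 0.85 on the log2 scale (difference -0.85, adjusted p = 0.00153). Tollip, an adaptor that restrains the receptor complex, differed by -0.15 and Tab1, a partner of the kinase TAK1, by 0.26. Without carcinoma D4 and advanced carcinoma D8 and D9, 2 genes of this list were higher (Irak2 and Tab1) and 1 lower (Peli2), and without both tied arrays the counts were again 2 higher and 1 lower. Tollip passed in neither setting (adjusted p = 0.0633 and 0.0816), and Tab1 did not pass without the tied arrays (0.0647).

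Of 14 genes for the processing and release of the ligands, 4 were higher and 3 lower, or 7 called beside 24.9% of all genes, with a median of -0.02. P2rx7, the ATP-gated channel upstream of inflammasome activation, averaged 7.59 ± 0.17 in CAFs and 6.40 ± 0.51 in normal and hyperplasia fibroblasts (difference 1.2, adjusted p = 0.00201). Casp1, the protease that cleaves IL-1β and IL-18, differed by 1.01 (adjusted p = 0.00792). Gsdmd, the pore-forming protein through which IL-1β leaves the cell, differed by -0.56 (adjusted p = 0.0127), and Gsdme, a related gasdermin, by -0.38 (adjusted p = 0.0137). Without carcinoma D4 and advanced carcinoma D8 and D9, 1 gene of this list was higher (P2rx7, 1.06) and none was lower, with adjusted p of 0.108 for Casp1, 0.0777 for Gsdmd and 0.116 for Gsdme, and without both tied arrays 2 were higher and 2 lower.

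Of 25 genes known to respond to IL-1 in fibroblasts, 8 were higher and none was lower, beside 12% of all genes called higher, with a median of 0.20. The rest did not pass, among them Cxcl1 (0.40), Icam1 (0.14), Nfkbia (0.04), Tnfaip3 (-0.24), Ptgs2 (-0.29) and Ptges (-0.44, adjusted p = 0.0506). Without carcinoma D4, 9 were higher and 1 was lower (Ptges, -0.32, adjusted p = 0.024), where 23.6% of all genes were called in either direction. Saa3, an acute phase protein, averaged 5.85 ± 0.34 in CAFs and 4.61 ± 0.24 in normal and hyperplasia fibroblasts (difference 1.24, adjusted p = 0.000649), and Lcn2, an iron-siderophore binding protein, 11.39 ± 0.21 and 9.39 ± 0.75 (difference 2.0, adjusted p = 0.000905). Mmp13, a collagenase, differed by 3.23 (adjusted p = 0.00197), and Ccl2, a monocyte chemokine, by 1.89 (adjusted p = 0.019). In advanced carcinoma against normal, 3 genes of this list were higher, where 3.9% of all genes were. These were Mmp13 (4.47, adjusted p = 0.0028), Saa3 (1.39, adjusted p = 0.0231) and Lcn2 (2.06, adjusted p = 0.042). Their calls were not checked without both tied arrays, a setting in which 0.135% of all genes were called in advanced carcinoma against normal. In the CAF comparison without carcinoma D4 and advanced carcinoma D8 and D9, 5 genes of the list were higher, where 5.79% of all genes were. These 5 were Mmp13, Saa3, Lcn2, Ccl7 and Il6, of which Il6 had not passed on all arrays, and Ccl2 did not pass (adjusted p = 0.055). Without both tied arrays 6 were higher, where 9.51% of all genes were, and Ccl2 (adjusted p = 0.0732) and Ccl7 (0.0808) did not pass. The study also showed Mmp13, Ccl2, Ccl7, P2rx7 and Casp1 from these samples, so their calls are not independent evidence either. Several of these genes also respond to other cytokines and are expressed by epithelium or macrophages, whose markers were higher on the same arrays, and that part was not tested.

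**Figure D4:**
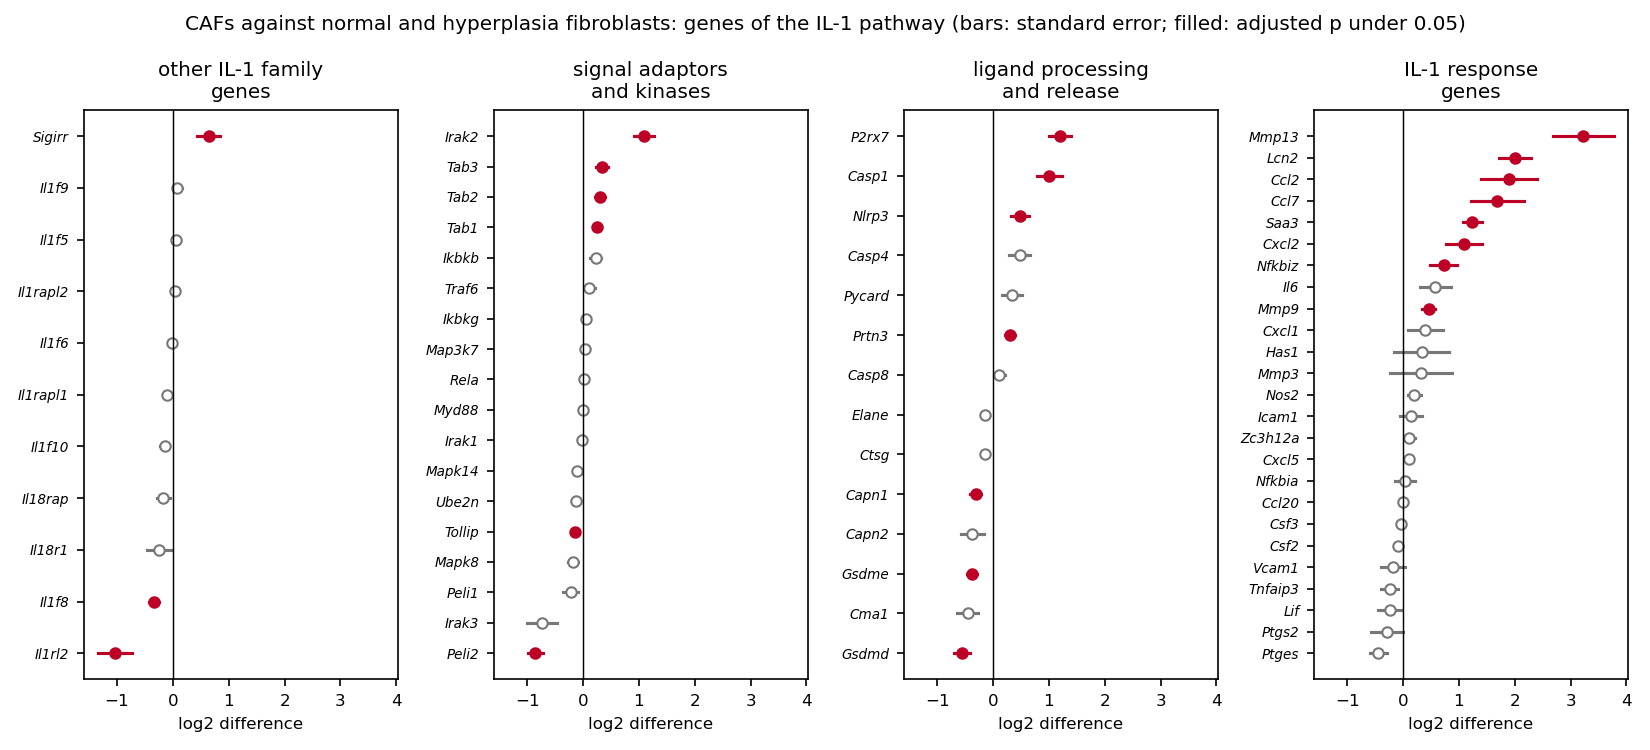
Log2 difference (points) with its standard error (lines) for each measured gene of 4 IL-1 pathway lists in CAFs against normal and hyperplasia fibroblasts. Filled red points have an adjusted p under 0.05. Symbols are those of RefSeq where it has the gene, and can differ from the array symbols used in the text. In the list of IL-1 response genes 8 of 25 are higher and none is lower, whereas the other 3 lists hold genes in both directions.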

How the data were processed

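Log2 expression values of 11 arrays were deposited by the authors after robust multi-array averaging (RMA) in Partek 6.5, per the submitters' processing notes; a genome build is not given in the sources used here. Of 35399 probe sets, 21789 had 1 gene symbol in the platform annotation, 1621 several and 11989 none. The brightest probe set by mean over the 11 arrays stood for each symbol, giving 19938 genes (999 had more than 1 probe set). Array medians lay between 5.28 and 5.39 on the log2 scale.

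Differences were tested with limma 3.58.1 in R 4.3.3 (linear model and empirical Bayes moderation), as a 2-group fit for the CAF comparison and as a fit of 4 stage means for the others, with Benjamini-Hochberg adjustment over all genes within a comparison and a threshold of 0.05. Folds are 2 to the power of the size of the log2 difference. Per the study each array stands for a cohort of mice, so p-values measure the spread between pools and not between single mice. Members and lists were chosen with earlier results of these data known. The text names all measured members, up to 4 genes per list with the smallest p among those that passed, the markers of the sort and the 2 nearest patterns per member. Ccl7, Marco, Mertk, Cd163, Il6, Cxcl1, Icam1, Nfkbia, Tnfaip3, Ptgs2, Ptges and Il1bos were chosen after their values were seen. Alternatives were a term for, or removal of, the tied arrays, median centring, quantile scaling, a filter at the median level, all probe sets tested apart, ordinary analysis of variance contrasts (the methods' test), trended robust variances, array weights, the methods' threshold and each array left out. Promoter windows came from RefSeq GRCm38.p6.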

Additional observations from a re-analysis of the deposited data

Results flagged for a closer look

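Relative to the normal mean, Il1a was lower on every hyperplasia array and higher on every CAF array; the carcinoma and hyperplasia changes differed by 0.70 and the advanced carcinoma and hyperplasia changes by 1.86 on the log2 scale. For Il1b the same differences were 1.36 for carcinoma and 2.69 for advanced carcinoma, and for Il1rn 0.62 and 0.88. These 6 differences of direction were not tested, and they rest on a mean of 2 normal arrays, of which D2 is tied to advanced carcinoma D11 and has the higher values of all 3 genes.

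In 16 groups of 5 or 6 arrays, 3 held an array far from the rest by Dixon's ratio, which chance gives in about 1 group of 20. Il33 was 8.71 on carcinoma D4 among the 6 CAF arrays, the array that also had the lowest mean of fibroblast markers (9.38). Il33 was 9.03 on hyperplasia D12 among the 5 normal and hyperplasia arrays. Hyperplasia D12 also had the highest means of all arrays for pan-leukocyte markers (9.79), T, NK and innate lymphoid markers (8.16) and B cell markers (7.99). Il18bp was 6.0 on carcinoma D3 among the 6 CAF arrays.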

How the results depend on the processing

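The CAF comparison called 5 members. It called 3 of the 6 members left when genes below the median level were removed (Il1a and Il1rn dropped out), 3 with ordinary analysis of variance contrasts, 3 to 6 with 1 array left out, and 2 without carcinoma D4 and advanced carcinoma D8 and D9, an alternative chosen after seeing the data. Advanced carcinoma against normal called 2 members; it called 0 with a term for the tied arrays, 0 without them, 0 with analysis of variance contrasts, 5 with array weights (19.6% of all genes, against 5.61%), 5 at the methods' threshold (unadjusted p under 0.05 and fold over 1.5, met by 10.6% of all genes) and 0 to 4 with 1 array left out. Carcinoma against normal called 0 members, 2 at the methods' threshold (6.98% of all genes) and 0 to 1 with 1 array left out. Advanced carcinoma against carcinoma called 0, 3 with array weights (6.53% of all genes, against 0%) and 2 at the methods' threshold (0.727% of all genes). The cause of these shifts was not tested, and some of these settings, but not all, held fewer arrays or genes.

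The direction changed in 7 of 40 differences, all small and none of them called. Il18bp in CAFs was -0.0013 with arrays centred on their medians. Il33 in carcinoma against normal (0.02) was -0.15 with the term for the tied arrays, -0.04 without them and -0.03 with median centring, and ran between -0.31 and 0.53 with 1 array left out. In hyperplasia against normal, Il1a was 0.01 and Il18 -0.05 without the tied arrays; with 1 array left out Il1a ran between -0.29 and 0.01, Il18 between -0.16 and 0.26 and Il33 between -0.34 and 0.07. Il18bp ran between -0.23 and 0.21 in advanced carcinoma and between -0.33 and 0.11 in carcinoma against normal. No paired analysis was possible because the groups share no replicate number. Signal over background is not held by these values, so dim members such as Il1a carry an unknown share of background.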
